A study of Mus musculus with 6 samples.

Results

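The secondary and tertiary granule genes of neutrophils were followed through 2 inductions of cultured mouse granulocyte-macrophage progenitors. The group holds 10 of the 27998 gene columns of the count table, chosen by name as transcripts of known contents of secondary and tertiary granules or of late neutrophil maturation: Ltf, Camp, Ngp, Lcn2, Mmp8, Mmp9, Chil3, Hp, Olfm4 and Retnlg. All 10 had a column, and each had a UMI (unique molecular identifier, which counts a transcript molecule once) in at least 1 library.

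The cells, named Lys-GFP-ER-HoxA9 cells by the submitters and iGMPs in the study, came from mice of strain C57BI/6 and carry a green fluorescent protein reporter in the lysozyme gene. A HOXA9 fusion to the estrogen receptor domain (G400V mutant) holds them in self-renewal while estradiol is present, with stem cell factor from conditioned medium of hamster ovary cells. In the CAF-1 OFF arm, a clone with an IPTG-inducible hairpin against Chaf1b, which encodes part of the histone chaperone CAF-1, stayed in 150 ng/ml estradiol and received 500 µM IPTG for 48 or 96 h. In the HOXA9 OFF arm, a clone with a control hairpin was washed out of estradiol for 48 or 96 h. Each arm had its own uninduced library at 0 h in estradiol without IPTG. Each arm is 1 clone and each group is 1 library of sorted live cells, so no difference was tested, clone and induction cannot be told apart between the arms, and intervals cover counting error only.

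Neutrophil granules form in sequence during maturation. Primary granules are filled at the promyelocyte stage, secondary (specific) granules at the myelocyte stage and tertiary (gelatinase) granules later, and the content of a granule follows from which genes are transcribed when it forms. Transcription of secondary granule genes depends on C/EBP factors, above all C/EBPε, together with PU.1.

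The promoters are shown because these genes are made in neighbouring stages of maturation but did not move together in the CAF-1 OFF arm. A RefSeq table for GRCm38.p6, the mouse assembly the reads were aligned to, held a promoter (250 bases before to 50 after the start of transcription, 300 bases) for 8 of the 10 genes, and none for Mmp9 and Hp. The first 3 below belong to genes that were at or near 0 in CAF-1 OFF, the next 3 to genes that were higher there, and the last to the gene that came latest in HOXA9 OFF. They lie at chr9:111019042-111019341 (Ltf, plus strand), chr9:110419558-110419857 (Ngp, plus), chr9:109849407-109849706 (Camp, minus), chr2:32387690-32387989 (Lcn2, minus), chr9:7558179-7558478 (Mmp8, plus), chr3:106167515-106167814 (Chil3, minus) and chr16:48872358-48872657 (Retnlg, plus). Each runs 5′ to 3′ on the strand of its gene, in lower case, with matches to the core C/EBP motif TTGCNNAA on either strand in capitals.
Ltf: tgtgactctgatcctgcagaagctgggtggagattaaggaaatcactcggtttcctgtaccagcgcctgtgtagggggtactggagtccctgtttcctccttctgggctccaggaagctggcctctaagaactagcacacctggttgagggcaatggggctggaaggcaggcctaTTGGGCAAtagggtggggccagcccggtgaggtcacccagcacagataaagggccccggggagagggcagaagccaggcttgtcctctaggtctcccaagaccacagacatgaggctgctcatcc
Ngp: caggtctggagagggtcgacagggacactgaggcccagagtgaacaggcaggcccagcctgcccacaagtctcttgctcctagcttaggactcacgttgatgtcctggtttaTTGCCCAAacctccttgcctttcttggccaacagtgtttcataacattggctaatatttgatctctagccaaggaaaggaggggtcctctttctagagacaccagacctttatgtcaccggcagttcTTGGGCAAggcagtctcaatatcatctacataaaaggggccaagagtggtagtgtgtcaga
Camp: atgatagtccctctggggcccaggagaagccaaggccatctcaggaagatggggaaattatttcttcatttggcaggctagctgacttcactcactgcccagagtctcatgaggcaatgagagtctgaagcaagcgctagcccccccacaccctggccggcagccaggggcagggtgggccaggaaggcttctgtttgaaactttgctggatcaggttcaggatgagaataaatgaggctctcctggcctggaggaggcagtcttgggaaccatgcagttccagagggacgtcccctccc
Lcn2: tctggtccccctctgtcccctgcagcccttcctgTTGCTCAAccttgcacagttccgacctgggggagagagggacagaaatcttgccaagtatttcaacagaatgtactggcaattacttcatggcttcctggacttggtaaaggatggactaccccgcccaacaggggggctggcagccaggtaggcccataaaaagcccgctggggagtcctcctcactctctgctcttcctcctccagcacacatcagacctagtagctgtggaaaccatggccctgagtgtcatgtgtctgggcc
Mmp8: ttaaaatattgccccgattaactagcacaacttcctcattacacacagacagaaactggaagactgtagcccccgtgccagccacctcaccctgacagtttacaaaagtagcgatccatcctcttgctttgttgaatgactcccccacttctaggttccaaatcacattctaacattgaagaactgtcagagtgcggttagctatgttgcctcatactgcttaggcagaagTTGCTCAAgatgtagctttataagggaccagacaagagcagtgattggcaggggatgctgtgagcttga
Chil3: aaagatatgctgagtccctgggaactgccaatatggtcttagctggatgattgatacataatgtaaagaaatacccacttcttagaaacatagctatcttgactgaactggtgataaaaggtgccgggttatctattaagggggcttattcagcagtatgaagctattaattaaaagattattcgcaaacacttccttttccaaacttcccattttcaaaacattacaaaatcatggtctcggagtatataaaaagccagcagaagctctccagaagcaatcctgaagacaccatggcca
Retnlg: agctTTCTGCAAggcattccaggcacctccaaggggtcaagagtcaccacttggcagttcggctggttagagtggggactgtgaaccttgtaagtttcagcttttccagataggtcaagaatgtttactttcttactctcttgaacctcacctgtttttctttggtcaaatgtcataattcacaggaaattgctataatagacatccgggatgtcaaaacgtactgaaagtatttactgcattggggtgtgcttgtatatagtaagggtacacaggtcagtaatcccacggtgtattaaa

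A C/EBP match was found in 5 of the 8 promoters, against 10.8% of all 32851 promoters of this length in the table. Ltf had a match that starts at -75 from the start of transcription, Ngp had matches at -138 and -11, Lcn2 at -216, Mmp8 at -19 and Retnlg at -246. Camp, Chil3 and Olfm4 had none in this window. The PU.1 core GAGGAA, on either strand, was present in 4 of the 8 (Ltf, Lcn2, Mmp8 and Olfm4), against 28.3% of all promoters, and overlapped no C/EBP match. Both kinds of match occur in genes that were at 0 in CAF-1 OFF and in genes that were higher there. A match is a run of letters and not a measured binding site.

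Camp, Ngp and Ltf lie in this order within 1195 kb of chromosome 9 (9:109847377-109849456, 9:110419808-110423012 and 9:111019292-111042766), at distances of 570.4 and 596.3 kb. The stretch holds 31 protein-coding genes, of which 27 besides these had a column in the count table and 22 of those a UMI. Of the 27, the number at least 2-fold higher than at 0 h was 0 in HOXA9 OFF at 48 h and 1 (Nbeal2) at 96 h, and the number lower was 1 and 2. In the CAF-1 OFF arm 0 passed in either direction. Only 3 of the 27 averaged 20 CPM (UMIs of a gene per 1000000 UMIs of its library) or more, the level asked of the background genes below, so a change of the others would rarely have passed the size. Mmp8 lies far from them on the same chromosome (9:7558429-7568486).

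The libraries differ in depth and in what they hold. The 5872 kept cells gave between 3524285 and 5589486 UMIs per library, and the median per cell lay between 5956 and 8660 UMIs at 0 h and in CAF-1 OFF but was 3535.5 and 2043.5 at 48 and 96 h in HOXA9 OFF. S100a8 and S100a9 alone held 11.3% of the UMIs of HOXA9 OFF at 96 h, which lowers the share of every other gene. The mitochondrial limit removed 41.7% and 66.2% of the barcodes at 0 h in CAF-1 OFF and HOXA9 OFF, and between 0.198% and 18.3% later. At most 7 barcodes were shared by a pair of libraries, and 16 over all pairs. Progenitor markers were present in the 0 h libraries, where Cd34, Flt3, Myb, Sox4, Myc and Kit summed to 1401 and 1312 CPM.

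At 0 h the granule genes were close to silent. Together they held 47.9 CPM in the CAF-1 OFF library and 43.9 CPM in the other, and 5 of the 10 were at 0 UMIs in each library. Most of that came from Lcn2, Mmp8 and Hp, and no member passed 24.2 CPM. Between the uninduced clones, Mmp8 was the member that differed by at least 2-fold after 10 CPM was added to both values, the size used for every call here. It was at 24.2 CPM (95% Poisson interval 19.7 to 29.4) in CAF-1 OFF and 4.53 CPM (2.73 to 7.08) in HOXA9 OFF, 5.34-fold lower, where 0.146% of the 4789 genes that averaged at least 20 CPM over the libraries (the background genes) were lower by that size. Lcn2 was 2.64-fold higher (1.79 to 3.96) in HOXA9 OFF without the addition and did not pass.

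Nearly the whole group was higher by orders of magnitude after inactivation of HOXA9, and part of it after suppression of CAF-1. In HOXA9 OFF, 8 of the 10 genes passed the size upwards against 0 h at 48 h and 9 at 96 h, where 13% and 18.1% of the 4789 background genes were. In CAF-1 OFF the same 4 genes (Lcn2, Mmp8, Chil3 and Hp) were higher at 48 and 96 h, where 2.76% and 5.22% of the background genes were. No member was lower by this size in any of these comparisons. Of background genes, 0.0418% and 0.856% were lower after suppression of CAF-1 and 19.6% and 39.8% after inactivation of HOXA9. With 10 CPM added, only a gene above 10 CPM at 0 h can be lower by this size. Those were Mmp8 and Hp in CAF-1 OFF and Lcn2 and Hp in HOXA9 OFF, so for the other members this outcome was fixed in advance. Under TMM scaling, which sets the bulk of genes equal between libraries, the background shares of HOXA9 OFF became 15.9% higher and 14.6% lower at 48 h and 24.1% higher and 31.6% lower at 96 h, and no member's ratio changed sign. The median log2 ratio over the 10 genes (10 CPM added) was 4.58 and 8.44 in HOXA9 OFF, beside -0.23 and -0.56 over all background genes. In CAF-1 OFF it was 0.09 and 0.53, beside 0 and -0.08. Of the 10 genes, 9 had the mean of 20 CPM that the background genes needed, and Olfm4 had not. Ltf, Camp, Ngp, Mmp9, Hp and Retnlg reached it only through the HOXA9 OFF libraries. Lcn2, Mmp8 and Chil3 would have reached it through the CAF-1 OFF libraries too (428, 724 and 144 CPM at 96 h).

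**Figure D1:**
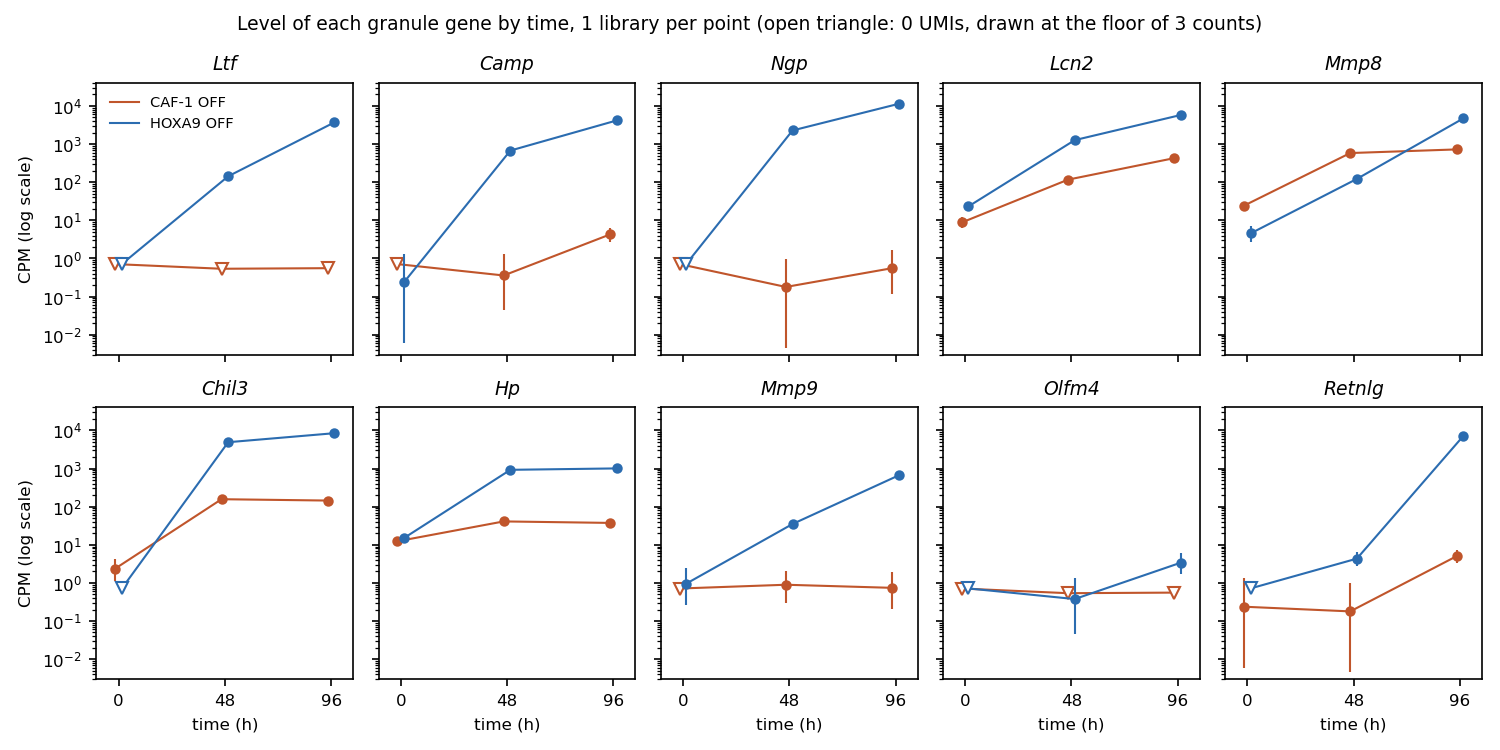
Level of each of the 10 granule genes (CPM, log axis) against time (h) in CAF-1 OFF and HOXA9 OFF, 1 library per point, with 95% Poisson intervals as bars. Open triangles mark libraries at 0 UMIs, drawn at the floor of 3 counts. Lcn2, Mmp8, Chil3 and Hp are higher in both arms, whereas Ltf, Ngp, Mmp9 and Olfm4 stay at or near the floor in CAF-1 OFF.

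The first set of genes separates the arms almost completely. Ltf encodes lactoferrin, the iron-binding protein that marks secondary granules. It was at 0 UMIs in all 3 CAF-1 OFF libraries and in HOXA9 OFF at 0 h, then reached 143 CPM (133 to 153) by 48 h and 3720 CPM (3656 to 3784) by 96 h. Set against the floor of 3 counts, that is at least 200-fold higher than at 0 h at 48 h and at least 5195-fold higher at 96 h. In CAF-1 OFF, 0 of 927 and 0 of 911 cells had a Ltf UMI, which allows shares of cells with a UMI of up to 0.324% and 0.329% (3 counts of the total, counting error only), while 61.3% of HOXA9 OFF cells had one at 96 h.

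Ngp, neutrophilic granule protein of the cathelicidin-related family, had the largest count. It had 0, 1 and 3 UMIs in CAF-1 OFF at 0, 48 and 96 h. In HOXA9 OFF it was at 0 UMIs at 0 h, 2275 CPM (2235 to 2316) by 48 h and 11396 CPM (11285 to 11508) by 96 h, at least 3178-fold and at least 15918-fold higher than the floor at 0 h. At 96 h, 40164 of 3524285 UMIs came from this gene.

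Camp encodes the precursor of the antimicrobial peptide cathelicidin. In HOXA9 OFF it went from 0.24 CPM (1 UMI) at 0 h to 675 CPM (653 to 698) by 48 h and 4165 CPM (4098 to 4233) by 96 h. The CAF-1 OFF libraries had 0, 2 and 23 UMIs, or 4.26 CPM (2.70 to 6.40) at 96 h, at least 5.99-fold higher than the floor at 0 h. Those 23 UMIs came from 17 of 911 cells with at most 4 in a cell, and Camp did not pass the 2-fold size after 10 CPM was added (log2 ratio 0.51). With 1 CPM added in place of 10 the log2 ratio was 2.40, past the size.

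The second set was higher in both arms. Lcn2 encodes lipocalin 2, which binds bacterial siderophores. It was at 8.78, 117 and 428 CPM over the CAF-1 OFF series and at 23.1, 1269 and 5813 CPM over the HOXA9 OFF series at 0, 48 and 96 h, so it was 48.8-fold higher (35.3 to 69.5) than at 0 h at 96 h in the first arm and 251-fold higher (206 to 310) in the second. At 96 h 78.6% of CAF-1 OFF cells and 92.0% of HOXA9 OFF cells had a Lcn2 UMI, against 5.26% and 15.0% at 0 h. With 10 CPM added, Lcn2 alone of the 10 was again at least 2-fold higher in CAF-1 OFF at 96 h than at 48 h, where 0.71% of background genes were. Without the addition it was 3.67-fold higher (3.36 to 4.01). Camp (2 and 23 UMIs) and Retnlg (1 and 27 UMIs) were also higher at 96 h than at 48 h but did not pass with 10 CPM added.

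Mmp8 encodes neutrophil collagenase, a protease of secondary granules. In CAF-1 OFF it was at 24.2, 582 (562 to 602) and 724 CPM (702 to 747), and in HOXA9 OFF at 4.53, 122 (113 to 132) and 4692 CPM (4620 to 4764). Mmp8 is the exception to the order of the arms: at 48 h it was 4.77-fold lower in HOXA9 OFF than in CAF-1 OFF, where 19.9% of background genes were at least 2-fold lower, and at 96 h it was 6.48-fold higher (6.26 to 6.71), where 15.6% were at least 2-fold higher. Its 0 h level was 5.34-fold lower in HOXA9 OFF too, so against its own 0 h library the increase at 48 h was 24.0-fold (19.7 to 29.6) in CAF-1 OFF and 26.9-fold (17.1 to 45.0) in HOXA9 OFF, intervals that overlap. At 96 h the increases were 29.9-fold (24.6 to 36.8) and 1035-fold (662 to 1719).

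Chil3 encodes a chitinase-like lectin (Ym1) made by neutrophils and some macrophages. It was at 2.37, 157 and 144 CPM over the CAF-1 OFF series and at 0 UMIs, 4897 and 8446 CPM over the HOXA9 OFF series. In CAF-1 OFF it was 60.9-fold higher (32.9 to 127) at 96 h than at 0 h, and the levels at 48 and 96 h had a ratio of 0.92 (0.84 to 1.02). In HOXA9 OFF it was at least 6839-fold and at least 11797-fold higher than the floor at 0 h. The CAF-1 OFF signal came from few cells, with a UMI in 16.2% of cells at 96 h and up to 43 UMIs in a cell.

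Hp encodes haptoglobin, which binds free haemoglobin. It was at 12.3, 41.0 and 37.4 CPM over the CAF-1 OFF series, 3.03-fold higher (2.23 to 4.20) at 96 h than at 0 h, and at 15.0, 924 and 1006 CPM in HOXA9 OFF, 66.9-fold higher (52.2 to 87.3). This is the smallest increase among the 4 genes of the set in both arms at 96 h. In CAF-1 OFF at 96 h its call ends with 50 CPM added in place of 10 (log2 ratio 0.49) and with all deposited barcodes kept (0.97). At 48 h it ends with 50 CPM (0.55).

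The remaining genes are those of the latest stages, and Olfm4. Mmp9 encodes gelatinase B, the enzyme that gives tertiary granules their name. It had 0, 5 and 4 UMIs in CAF-1 OFF and was at 0.95 CPM (4 UMIs), 35.0 CPM (30.2 to 40.4) and 663 CPM (636 to 690) in HOXA9 OFF, where the call at 48 h ends with 50 CPM added (log2 ratio 0.74). Retnlg encodes a resistin-like protein of mature neutrophils. It had 1, 1 and 27 UMIs over the CAF-1 OFF series. In HOXA9 OFF it had 0 UMIs at 0 h, 23 UMIs (4.33 CPM) at 48 h and 24915 UMIs (7070 CPM, 6982 to 7158) at 96 h.

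The 27 UMIs of Retnlg in CAF-1 OFF at 96 h came from 8 of 911 cells, with 11 in 1 cell. With 1 CPM added in place of 10, Retnlg passed the size there (log2 ratio 2.28) and at 48 h in HOXA9 OFF (2.41). Olfm4 encodes olfactomedin 4, a secondary granule protein found in only some neutrophils. It had 0 UMIs in all 3 CAF-1 OFF libraries and at 0 h in HOXA9 OFF, 2 UMIs at 48 h and 12 at 96 h in HOXA9 OFF, from 11 of 1510 cells (0.728%). It passed the size there with 1 CPM added in place of 10 (log2 ratio 2.14) and not otherwise.

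The interval between 48 and 96 h spread the genes out in HOXA9 OFF. Hp had a ratio of 1.09 (1.04 to 1.14) and Chil3 of 1.72 (1.70 to 1.75), and neither passed 2-fold. Lcn2 was 4.58-fold (4.46 to 4.71), Ngp 5.01-fold (4.91 to 5.11) and Camp 6.17-fold (5.95 to 6.40) higher. Then came Mmp9 at 18.9-fold (16.3 to 22.1), Ltf at 26.0-fold (24.2 to 28.0), Mmp8 at 38.4-fold (35.5 to 41.7) and Retnlg at 1632-fold (1088 to 2575). These 7 genes passed 2-fold, where 6.56% of background genes did. Counting intervals of neighbours in this order did not overlap. Olfm4, with 12 against 2 UMIs, gave 9.04-fold (2.01 to 83.2), which cannot be placed.

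**Figure D2:**
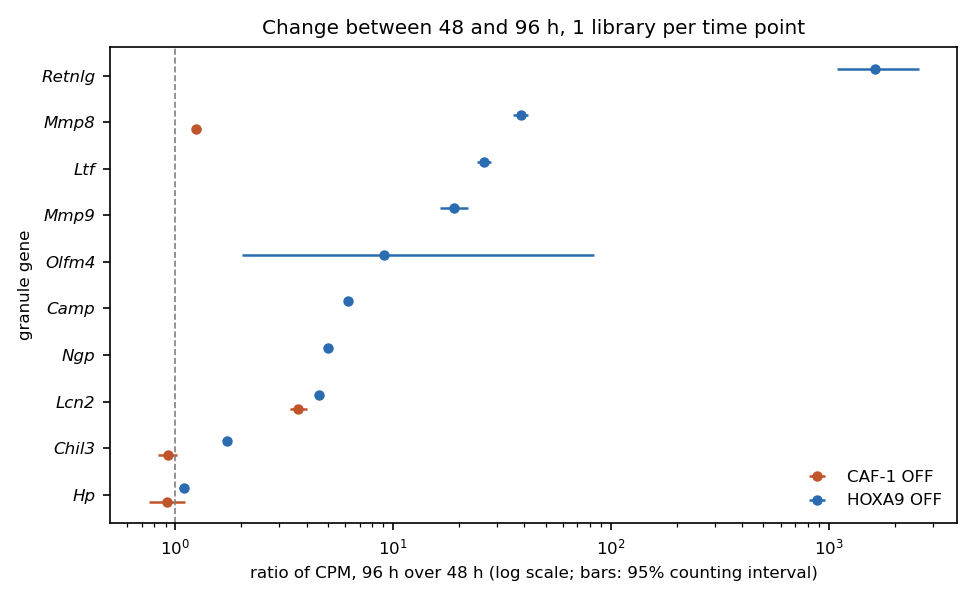
Ratio of CPM at 96 h over 48 h (log axis) for each granule gene, with 95% counting intervals as bars, from 1 library per time point. The 4 genes that were higher in CAF-1 OFF are shown for both arms. In HOXA9 OFF the ratio runs from 1.09 for Hp to 1632 for Retnlg, and in CAF-1 OFF only Lcn2 of the 4 lies above 2.

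Counted per cell rather than per UMI, Hp went the other way. Its mean was 3.50 UMIs per cell (3.40 to 3.59) at 48 h and 2.35 (2.27 to 2.43) at 96 h, and Chil3 had 18.5 (18.3 to 18.7) and 19.7 (19.5 to 19.9). Over the same interval Ngp went from 8.61 to 26.6, Mmp8 from 0.46 to 10.95 and Retnlg from 0.016 to 16.5 UMIs per cell. The direction of Hp between 48 and 96 h thus depends on the scale, and that of the 7 genes that passed 2-fold does not.

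The number of granule genes in the same cell was counted after thinning every cell to 1300 UMIs, which leaves out 14, 20 and 9 shallower cells of the CAF-1 OFF libraries at 0, 48 and 96 h and 1, 28 and 134 of the HOXA9 OFF libraries. At 0 h, 0 of 633 cells in CAF-1 OFF and 0 of 472 in HOXA9 OFF had at least 3 of the 10 genes (which allows up to 0.474% and 0.636%). In HOXA9 OFF the share was 48.3% (45.7 to 51.0) at 48 h and 94.0% (92.6 to 95.2) at 96 h. In CAF-1 OFF it was 4.30% (3.08 to 5.83) and 4.99% (3.66 to 6.62). A cell with at least 1 gene was common there, at 42.1% and 65.1%, but 0 of 907 and 0 of 902 cells had 5 (which allows up to 0.331% and 0.333%), against 11.2% and 81.9% in HOXA9 OFF. Members other than Lcn2, Mmp8, Chil3 and Hp had at most 27 UMIs in a CAF-1 OFF library. Their levels alone thus made a cell with 5 unlikely, and this 0 says little about genes sharing cells. Without thinning the share with at least 3 genes at 96 h was 22.2% for CAF-1 OFF and 97.2% for HOXA9 OFF.

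**Figure D3:**
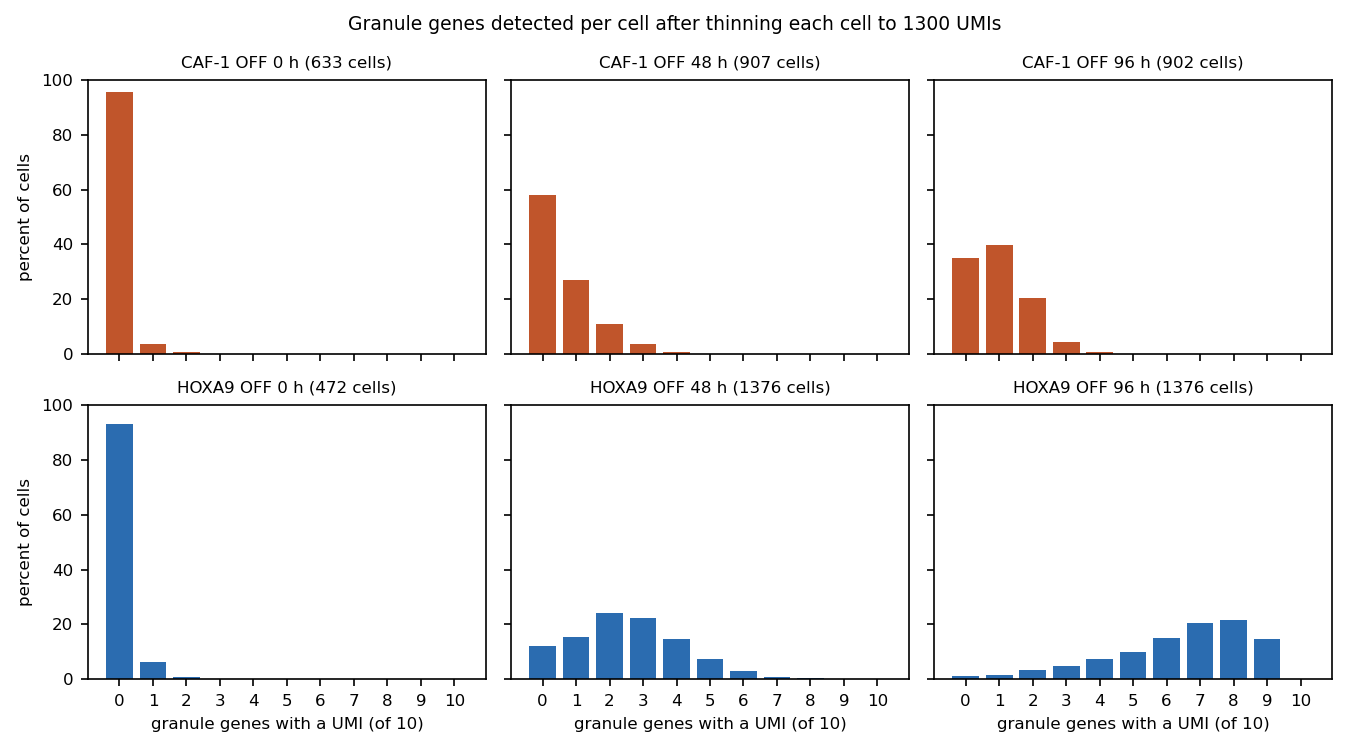
Percent of cells (y axis) by the number of the 10 granule genes with a UMI (x axis) after each cell was thinned to 1300 UMIs, for the 6 libraries, with the number of cells in each title. At 96 h most CAF-1 OFF cells hold 0 or 1 gene, whereas most HOXA9 OFF cells hold 6 to 9.

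At equal depth the shares of cells with a UMI kept the first and second sets apart in CAF-1 OFF and also divided the second. At 96 h there, Ltf and Ngp were found in 0 of 902 thinned cells (which allows up to 0.333%) and Camp in 0.776% (0.313 to 1.59). In CAF-1 OFF at 96 h Mmp8 was found in 43.1% (39.9 to 46.4) and Lcn2 in 38.4% (35.2 to 41.6) of thinned cells, but Chil3 in 8.43% (6.70 to 10.4) and Hp in 4.88% (3.57 to 6.49). In HOXA9 OFF at 96 h the shares ran from 55.1% for Ltf to 90.3% for Mmp8 over the members other than Olfm4. Unevenness was then read over all thinned cells, those without a UMI of the gene included. It therefore depends in part on these shares. The 10% of thinned cells with the most UMIs of a gene held 45.2% to 52.8% of the UMIs of Ltf, Camp, Ngp and Retnlg at 96 h, but 22.2% to 28.3% of those of Mmp8, Lcn2 and Chil3. At 48 h those 10% held 94.8% of the UMIs of Camp and 33.5% of those of Hp. A UMI of these genes was found in 15.7% and 63.4% of thinned cells at that time.

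Which genes shared cells was described with Spearman's rho over thinned cells (1376 in HOXA9 OFF at 96 h and 902 in CAF-1 OFF), which share their library and its free RNA. At 96 h in HOXA9 OFF, Ltf, Camp, Ngp and Lcn2 formed a block, with rho of 0.75 for Ltf with Ngp, 0.66 for Ltf with Camp, 0.66 for Camp with Ngp and 0.57 to 0.63 for Lcn2 with each. Retnlg had 0.24 to 0.26 with the same 3 genes and 0.37 with Mmp8, and Hp had between -0.07 and 0.17 with every other gene. In CAF-1 OFF at 96 h no pair of Lcn2, Mmp8, Chil3 and Hp went beyond 0.18. At 48 h (907 thinned cells) the same pairs ran from 0.08 for Lcn2 with Hp to 0.34 for Lcn2 with Chil3. Mean UMIs per thinned cell in CAF-1 OFF at 96 h were 0.53 (Lcn2), 0.93 (Mmp8), 0.22 (Chil3) and 0.05 (Hp). For Ltf, Camp, Ngp and Lcn2 in HOXA9 OFF at 96 h they ran from 4.68 to 14.5. Sparse counts hold rho down, so its size cannot be compared between the arms. In CAF-1 OFF at 96 h Lcn2 and Mmp8 were found together in 19.2% of thinned cells, where the product of their shares is 16.5%. For Chil3 with Hp these values were 1.22% and 0.41%, and for Lcn2 with Hp 1.66% and 1.87%. At 48 h Lcn2 and Chil3 were together in 4.52% of thinned cells, where the product is 1.23%.

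The cells of 3 libraries were clustered without the 10 genes, and the genes were then read in each cluster. A cluster was given a cell type name only where at least 3 listed markers were among its 10 leading genes. At 48 h in HOXA9 OFF the neutrophil-like cluster (S100a9, S100a8, Stfa2l1, Wfdc21) was 12.2% of cells and had the highest level of 8 of the 10 genes, among them Ltf at 1324 CPM (1218 to 1437), Ngp at 11055 CPM and Lcn2 at 6472 CPM. It held 75.8% of the UMIs of Ltf and 43.0% of those of Camp in the library, and 9.01% of those of Hp. The promyelocyte-like cluster (Mpo, Elane, Ctsg) had Ngp at 2145 CPM and Hp at 1180 CPM, its highest level, but Ltf at 23.2 CPM and Mmp8 at 8.33 CPM. Hp was thus at 969 to 1180 CPM in the 5 clusters outside the eosinophil-like and mast cell or basophil-like ones, while Ltf in the same clusters ran from 13.4 to 1324 CPM.

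A further cluster at 48 h (21.5% of cells, led by Wfdc17, Ctss and Ms4a6c, and not named) had another combination. Chil3 was at 6960 CPM, Hp at 1071 CPM and Mmp8 at 337 CPM (302 to 376) there, second only to the neutrophil-like cluster for Chil3 and Mmp8. Ltf was at 13.4 CPM, Camp at 20.6 CPM and Ngp at 145 CPM, which is 3.06% to 9.38% of the level in the whole library. A cluster of the same kind at 96 h (10.1% of cells, led by Ccl5, Ms4a6c and Clec4n) had Chil3 at 5310 CPM, Hp at 1100 CPM and Mmp8 at 1532 CPM with the lowest Ltf (120 CPM), Camp (109 CPM), Ngp (350 CPM) and Retnlg (428 CPM) of the 7 clusters. Of 8 monocyte markers, 2 (Csf1r and Irf8) were higher at 48 h than at 0 h in HOXA9 OFF and 1 (Ccr2) was lower. Of background genes, 13% were higher and 19.6% lower. The sum of the 8 markers ran from 352 to 475 CPM over the HOXA9 OFF libraries. But it was highest in these clusters, at 816 CPM (760 to 875) in the one at 48 h against 98.9 to 617 CPM in the others. In the one at 96 h it was at 1634 CPM (1530 to 1742), against 59.7 to 340 CPM in the others, and its part in this combination was not tested.

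**Figure D4:**
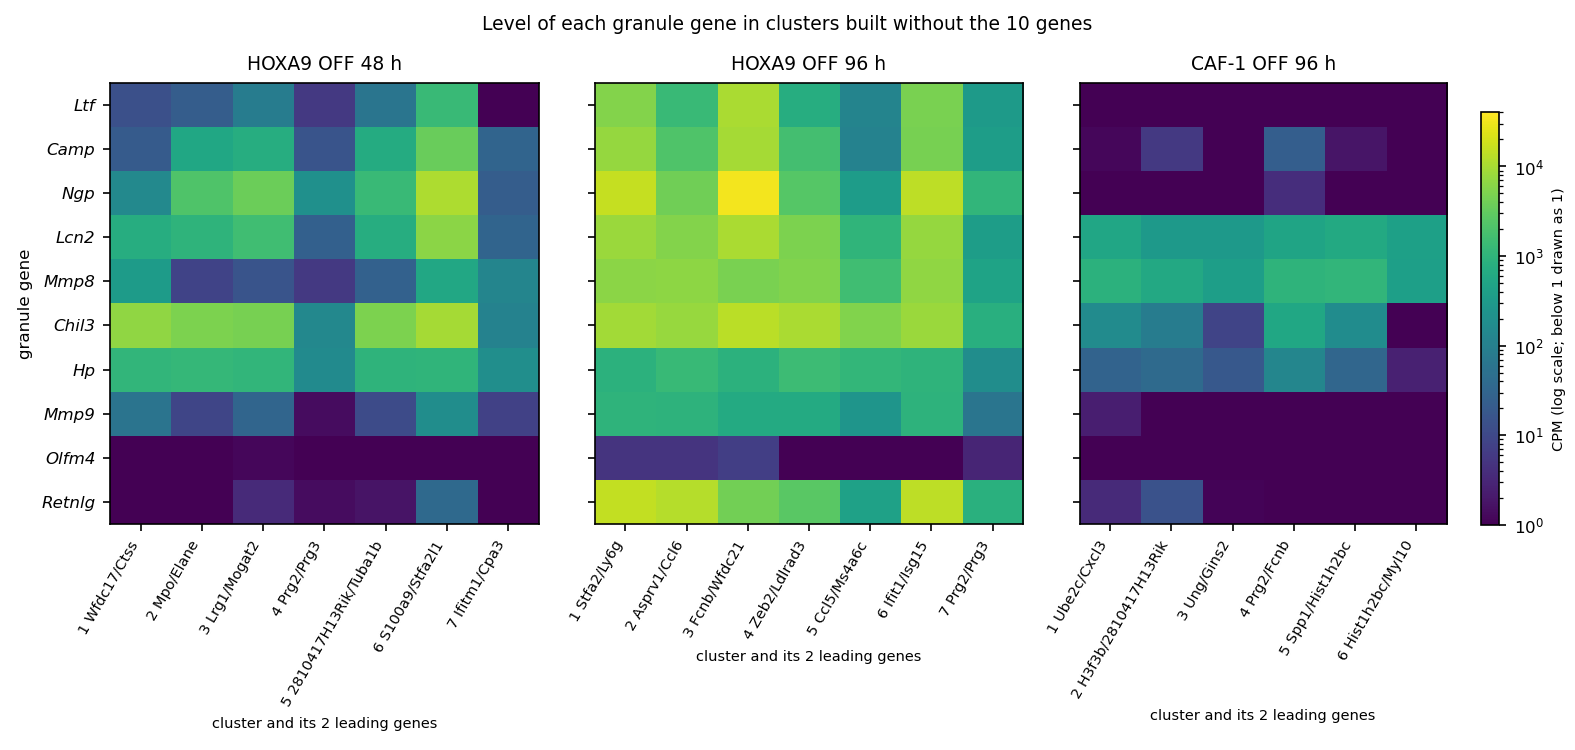
Level of each granule gene (rows, CPM on a log colour scale) in the clusters (columns, labelled by number and 2 leading genes) of HOXA9 OFF at 48 h, HOXA9 OFF at 96 h and CAF-1 OFF at 96 h, built without these genes. Ltf, Camp and Ngp change strongly between the clusters of HOXA9 OFF. Hp changes less, 7.48-fold from its lowest to its highest cluster at 48 h and 8.01-fold at 96 h. In CAF-1 OFF Lcn2 and Mmp8 are present in all 6 clusters.

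At 96 h in HOXA9 OFF the genes were highest in different clusters. The cluster led by Fcnb and Wfdc21 (15.4% of cells) had the highest Ltf (10467 CPM), Camp (9731 CPM), Ngp (33325 CPM), Lcn2 (10444 CPM) and Chil3 (13318 CPM), and held 54.7% of the UMIs of Ltf and 56.9% of those of Ngp. Retnlg was at 4149 CPM there (58.7% of the library's level). In the cluster led by Stfa2 and Ly6g it was at 15050 CPM, in the one led by interferon-response genes (Ifit1, Isg15) at 13842 CPM, and in the one with Il1b and Cxcr2 among its leading genes at 12491 CPM. In that last cluster Ltf was at 1303 CPM and Ngp at 3946 CPM, 35.0% and 34.6% of the library's level, while Mmp8 was at 6563 CPM and Mmp9 at 949 CPM. Mmp8 and Mmp9 thus lay in a narrower range than Ltf, Camp and Ngp over these 4 clusters.

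Free RNA in droplets gives UMIs in cells that do not express a gene, so the levels in clusters of other lineages are given too. The mast cell or basophil-like cluster at 48 h in HOXA9 OFF had 42 cells (median 2483 UMIs per cell against 3535.5 in the library). Ltf was found in 0 of its thinned cells, Ngp and Lcn2 in 5.13%, Mmp8 in 7.69%, Chil3 in 10.3% and Hp in 20.5%. In the whole library the shares of Ltf, Ngp, Lcn2, Mmp8, Chil3 and Hp were 7.85%, 29.1%, 50.1%, 10.1%, 68.1% and 63.4%. By level, Mmp8 was at 123 CPM (70.6 to 201, from 16 UMIs) in this cluster, 101% of the library's level. Ltf was at 0 UMIs there, and Camp, Ngp, Lcn2 and Chil3 were at 1.02% to 4.57% of the library's level. Hp was at 185 CPM and Mmp9 at 7.72 CPM (1 UMI), against 924 and 35.0 CPM in the library. Where its Mmp8 UMIs came from was not tested. In the eosinophil-like cluster of the same library (204 cells, median 3312.5 UMIs), Ltf was found in 1.05% of thinned cells, Ngp in 13.1%, Lcn2 in 4.19%, Mmp8 in 0.52%, Chil3 in 15.2% and Hp in 14.1%. At 96 h a cluster led by Prg2 and Prg3, genes of eosinophil granules (7.95% of cells, median 2479 UMIs against 2043.5), had 8 of the members at 6.19% to 11.6% of the library's level and Hp at 18.0%. Its share of thinned cells with a UMI reached 43.3% for Ngp and 37.5% for Retnlg. The shares in the whole library were 69.3% and 69.9%. That cluster had too few markers for a name, and whether its UMIs came from free RNA, from doublets or from its own cells was not tested. In CAF-1 OFF no named cluster served as such a reference.

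In CAF-1 OFF at 96 h none of the 6 clusters met the rule for a name. Lcn2 lay between 295 and 614 CPM and Mmp8 between 381 and 1056 CPM over the clusters, so both were spread over the whole population. Chil3 was confined more: it was at 545 CPM (483 to 614) in the cluster led by Prg2, Fcnb and Ly6c2, at 8.84 CPM (3.82 to 17.4) in the one led by Ung and Gins2 and at 0 UMIs in the one led by Hist1h2bc and Myl10. Hp was highest in the same Prg2 and Fcnb cluster (128 CPM, 98.8 to 163), which also held 12 of the 23 UMIs of Camp. Of the 27 UMIs of Retnlg, 20 came from the cluster led by H3f3b.

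Markers of other lineages moved in the same arm. In CAF-1 OFF, 2 of 9 mast cell or basophil markers (Cpa3 and Mcpt8) were higher at 96 h, their sum going from 286 to 1465 and 4044 CPM with Cma1, Tpsb2 and Cyp11a1 at 0, and 4 of 7 megakaryocyte markers, whose sum went from 45.8 to 503 and 2697 CPM with Gp1bb at 0. Of 9 eosinophil markers, 2 (Prg2 and Prg3) were higher at 96 h in CAF-1 OFF, with Epx, Ear1, Ear2 and Ear6 at 0. These 9 summed to 228, 482 and 1265 CPM. Of 7 erythroid markers, 2 (Gata1 and Car2) were higher there, with Car1 at 0, and the 7 summed to 101, 232 and 308 CPM. By comparison, 5.22% of background genes were higher in CAF-1 OFF at 96 h. In HOXA9 OFF, 5 of 9 eosinophil markers were higher at 48 h, where 13% of background genes were. The 9 markers summed to 1481, 19340 and 3302 CPM. All 9 neutrophil markers were higher at 96 h in HOXA9 OFF (90.7, 7016 and 119189 CPM at 0, 48 and 96 h), where 18.1% of background genes were. In CAF-1 OFF, 3 of the 9 were higher at 96 h (S100a8, Itgam and Cebpe). The 9 markers summed to 78.3, 544 and 851 CPM there, and Ly6g and Stfa2l1 were at 0. The part of these populations in the levels of the granule genes was not tested beyond the clusters given above.

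The genes around the group followed other courses. Of the 8 primary granule genes, 2 (Elane and Ms4a3) were higher at 48 and 96 h in CAF-1 OFF and none was lower. Of background genes, 2.76% and 5.22% were higher there and 0.0418% and 0.856% lower. In HOXA9 OFF, Elane, Ms4a3 and Ctsc were higher and Ctsg and Cst7 lower at 48 h, where 13% and 19.6% of background genes were. At 96 h Ctsc was higher and the other 7 of the 8 were lower, where 18.1% and 39.8% of background genes were. Ctsc, cathepsin C, which activates the granule serine proteases, was at 57.5, 178 and 300 CPM in HOXA9 OFF, and Srgn, the proteoglycan serglycin, was still at 621 CPM at 96 h. Elane, neutrophil elastase, was at 129, 913 and 1386 CPM over the CAF-1 OFF series and at 48.2, 512 and 3.69 CPM over the HOXA9 OFF series. Mpo, myeloperoxidase, was at 1451, 1928 and 2415 CPM and at 978, 890 and 18.4 CPM. In HOXA9 OFF at 96 h Elane and Mpo were thus at their lowest levels of the 3 times while the granule genes followed here were at their highest.

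Of 24 other genes of granule and secretory vesicle contents, 5 and 8 were at least 2-fold higher at 48 and 96 h in CAF-1 OFF, where 2.76% and 5.22% of background genes were. The HOXA9 OFF counts were 15 and 19, where 13% and 18.1% were, and none was lower than at 0 h in either arm. Mmp25 and Alpl were at 0 UMIs in every library. Pglyrp1, a peptidoglycan-binding protein of secondary granules, was at 38.9, 151 and 609 CPM over the CAF-1 OFF series and at 73.5, 1156 and 3766 CPM over the HOXA9 OFF series. Cybb, the membrane subunit of the oxidase stored in secondary granules, was at 0 UMIs, 2.15 and 5.19 CPM over the CAF-1 OFF series and at 0 UMIs, 199 and 646 CPM over the HOXA9 OFF series. Lyz1, a lysozyme whose reads can be hard to separate from those of Lyz2, was at 0 UMIs, 30.4 and 113 CPM, and at 0 UMIs, 44.1 and 213 CPM. In CAF-1 OFF, Pglyrp1 and Lyz1 thus passed the size, as Lcn2 did. Cybb, with 12 and 28 UMIs at 48 and 96 h, did not pass, as Camp did not. Courses in this list were graded there. By 96 h Itgb2 went from 7.36 to 59.7 CPM and Ltb4r1 from 11.2 to 113 CPM, and both passed. Cyba went from 465 to 825 CPM and did not.

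Factors known to act on granule genes had UMIs in both arms, Klf5 excepted. Cebpe, which encodes C/EBPε, was at 67.4, 510 and 785 CPM over the CAF-1 OFF series and at 82.3, 704 and 625 CPM over the HOXA9 OFF series. Cebpb, another member of the family, was at 44.6, 102 and 155 CPM and at 71.6, 200 and 452 CPM. Spi1, which encodes PU.1, was at 166, 230 and 323 CPM and at 154, 814 and 1049 CPM. Gfi1, a repressor needed for neutrophil maturation, was at 27.8, 86.2 and 146 CPM over the CAF-1 OFF series and at 59.7, 28.1 and 4.54 CPM over the HOXA9 OFF series. Of the 9 factors listed, 8 were analysed. Of these, 3 were higher at each time in CAF-1 OFF, where 2.76% and 5.22% of background genes were. In HOXA9 OFF, 4 and 3 were higher at 48 and 96 h, where 13% and 18.1% of background genes were. Gfi1 was lower at 96 h in HOXA9 OFF, where 39.8% of background genes were. No factor was lower there at 48 h (19.6% of background genes) or in CAF-1 OFF (0.0418% and 0.856%). Klf5 was at 0 UMIs, and Cebpd was not analysed here.

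The late genes S100a8, S100a9, Ly6g, Csf3r, Cxcr2 and Il1b were all higher at 96 h in HOXA9 OFF, and 1 of the 6 (S100a8) was in CAF-1 OFF. At that time 18.1% of background genes were higher in HOXA9 OFF and 5.22% in CAF-1 OFF. S100a8, a calcium-binding protein that fills the neutrophil cytosol, was at 0 UMIs, 14.3 and 22.4 CPM over the CAF-1 OFF series and at 0.24, 4001 and 65260 CPM over the HOXA9 OFF series. Ly6g, the antigen of mature mouse neutrophils, was at 456 CPM at 96 h in HOXA9 OFF and at 0 UMIs in CAF-1 OFF.

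The genes whose course over the 6 libraries was most like that of each member were searched among 3684 genes with at least 50 CPM in 1 library, by the root mean square difference of log2(CPM + 10) after each gene's mean was taken off. Ltf was closest to Stfa2l1 (difference 0.05, 3544 CPM at 96 h in HOXA9 OFF and 0 UMIs in CAF-1 OFF), Ngp to Gm5483 (0.35), Camp to 2010005H15Rik (0.59), Mmp9 to Sirpb1c (0.21) and Retnlg to Stfa2 (0.61). The Stfa genes, Gm5483, BC100530 and 2010005H15Rik belong to or resemble a family of near-identical stefins, so that their separate counts are uncertain. Lcn2 was closest to Pglyrp1 (0.73), Hp to Sat1 (0.39) and Chil3 to Stfa1 (1.06). Mmp8 had no close partner, with Lyz1 nearest at 1.37. Olfm4, near 0 throughout, was closest to genes of constant level, which says nothing of its course. With 6 libraries these are descriptions of 6 points.

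Among the members themselves, Ltf and Camp were closest (0.77), then Camp and Ngp (0.83). Mmp8 was nearest to Lcn2 (1.75) and farthest from Ngp (3.67).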

How the data were processed

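Libraries of 6 samples, 1 per group, were prepared with 10x Chromium 3′ chemistry (v2). The authors aligned the reads to GRCm38 (mm10) with Cell Ranger (3.0.1 in the submitters' processing notes, which also list Scanpy 1.4.6 and Seurat 3.0.1, while the study's methods name a later version) and deposited whole-number UMI counts per gene and barcode, 7821 barcodes by 27998 genes. Barcodes were assigned to libraries by the suffix the labels give. Cells with 200 to 6000 genes and at most 10% mitochondrial UMIs were kept, the study's limits. No doublet caller was run, and an alternative leaves out cells above the 95th percentile of UMIs of their library.

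For each library the UMIs of its kept cells were added up per gene and scaled to 1000000 (CPM). A fold is a ratio of CPM with an exact conditional binomial 95% interval, and a call is a log2 ratio of at least 1 after 10 CPM was added, which understates changes of low genes. A library at 0 was set to 3 counts. Shares have exact binomial intervals. Counts are of 3′ ends and were not divided by length. With 1 library per group no test was run. Cells were thinned to 1300 UMIs at random. Clusters of a library (Scanpy 1.11.5, Leiden, 2000 variable genes, 10 components, 20 neighbours, resolution 0.5) left out the 10 genes, and a cell type name needed 3 listed markers among the 10 leading genes. The code was tested on simulated data. Alternatives were other added CPM, TMM scaling, a total without S100a8, S100a9 and the 10 genes, both 0 h libraries as the base, other sizes of a call, other limits on cells and other thinning.

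The genes named are the 10 members, any gene of 4 fixed context lists or of the marker lists, the 3 genes most like each member, and the leading genes of clusters. Nbeal2 was named after its values were seen. The members, lists and tests were chosen with earlier results of these data known. Gene positions and promoters came from RefSeq tables of GRCm38.p6. Python 3.11.15, NumPy 2.4.6, SciPy 1.17.1 and pandas 2.3.3 were used.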

Additional observations from a re-analysis of the deposited data

Results flagged for a closer look

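The 1949 barcodes removed by the limits on cells entered no comparison of the report, apart from the alternative that keeps all barcodes, yet they held the granule genes above the level of the removed barcodes at 0 h. The 10 granule genes summed to 420 CPM (95% Poisson interval 343 to 510) in those of CAF-1 OFF at 48 h, beside 898 CPM in the kept cells. At 96 h the sum was 1631 CPM (1481 to 1793), beside 1345 CPM in kept cells. In HOXA9 OFF the sum was 10491 CPM (10054 to 10942) at 48 h, beside 10345 CPM in kept cells, and at 96 h it was 5059 CPM (3241 to 7527), from 3 barcodes, beside 46974 CPM. The removed barcodes of the 0 h libraries held 126 CPM (98.4 to 160) in CAF-1 OFF and 34.6 CPM (23.5 to 49.1) in HOXA9 OFF.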

How the results depend on the processing

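No paired analysis was possible because each group is 1 library. The numbers of granule genes at least 2-fold higher stayed within 1.5 times the reported number under every alternative run, at 3 to 4 in CAF-1 OFF at 48 h, 3 to 6 at 96 h, 7 to 9 in HOXA9 OFF at 48 h and 9 to 10 at 96 h. Of 320 log2 ratios of single members recomputed, 1 changed sign (Retnlg in CAF-1 OFF at 48 h, with 1 UMI there and 1 at 0 h, from -0.0082 to 0.0085 against both 0 h libraries summed), 4 passed the size anew (all with 1 CPM added: Camp and Retnlg in CAF-1 OFF at 96 h, Retnlg at 48 h and Olfm4 at 96 h in HOXA9 OFF) and 4 lost it (with 50 CPM added, Hp at each time in CAF-1 OFF, and Mmp9 in HOXA9 OFF at 48 h, and with all barcodes kept, Hp in CAF-1 OFF at 96 h). Under TMM scaling the median over all genes shifted by 0.21 (log2) for HOXA9 OFF at 48 h and by 0.37 at 96 h, and leaving S100a8, S100a9 and the 10 genes out of the total moved it by 0.21 at 96 h. With all barcodes kept it shifted by 0.13 in HOXA9 OFF at either time.

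The share of cells with at least 3 granule genes depended on depth and on the number of genes asked for. In HOXA9 OFF at 96 h it was 97.2% without thinning, 97.2% for at least 2 genes and 81.9% for at least 5. In HOXA9 OFF at 48 h it was 70.7% without thinning, 61.9% at 2600 UMIs, 72.3% and 11.2% for at least 2 and 5 genes, and 52.7% with a mitochondrial limit of 5%. In CAF-1 OFF at 96 h it was 22.2% without thinning, 10.2% at 2600 UMIs, 25.4% for at least 2 genes and 0 cells for at least 5. The order of these 3 libraries was the same in all of these. Values of Olfm4, and of Camp and Retnlg in CAF-1 OFF, rest on at most 27 UMIs per library.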
